A study of Mus musculus with 4 samples.

Results

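The genes Plau, Plat, Plaur, Serpine2 and Serpinb2 of the plasminogen activation system were followed in whole mouse skin. They were taken by gene name as 5 of the 47725 rows of the deposited table, and each name stands there once. The cKO skin came from mice whose series title pairs K5, taken to mean a keratin 5 promoter, with the floxed Pp6 allele (Pp6fl/fl). Pp6 is the catalytic subunit of protein phosphatase 6, encoded by Ppp6c, and keratin 5 is made by basal keratinocytes. The control skin carried the floxed alleles without K5 in its label, PP6fl/fl. All mice were 17 weeks old and on the C57BL/6J background. Each group had 2 libraries, numbered 2 and 3, of messenger RNA captured with oligo(dT) from pulverized skin. Whether replicates 2 and 3 are separate animals is not stated, so every p-value rests on library-to-library spread that may not include differences between animals.

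Plasminogen circulates as an inactive precursor and is cut to plasmin, a broad protease that dissolves fibrin and opens matrix. The activators that make the cut are urokinase, encoded by Plau, which acts near cell surfaces when held by its receptor, encoded by Plaur, and tissue plasminogen activator, encoded by Plat, which acts mainly on fibrin. Serpins trap the activators by offering a bait loop; Serpine2 encodes protease nexin 1, a secreted inhibitor of urokinase, tissue activator and thrombin, and Serpinb2 encodes plasminogen activator inhibitor 2, which stays largely inside cells. In skin the system is known for its part in wound closure, where keratinocytes at the wound edge make urokinase and its receptor.

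The deposited counts summed to 15837136 and 17459413 in cKO replicates 2 and 3, and to 23407731 and 22334208 in control replicates 2 and 3. The targeted transcript, Ppp6c, had 13.9 and 10.8 FPKM (fragments per length and depth, as the authors computed them) in cKO skin, against 13.4 and 14.1 FPKM in control skin. On the log2 scale cKO minus control was -0.09 ± 0.16 (SE, n = 2 libraries each), with an adjusted p of 0.81 in edgeR's quasi-likelihood test, called QL from here on. Counts over the whole gene in whole skin are no check of the deletion. Libraries differed in tissue content within the groups. Skeletal muscle markers, 6 genes, summed to 1524 and 9701 CPM in cKO replicates 2 and 3, against 6744 and 10532 CPM in control replicates 2 and 3. Hair shaft markers, 11 tested genes, summed to 1790 and 676 CPM in cKO replicates 2 and 3, against 344 and 105 CPM in control replicates 2 and 3. CPM are counts scaled to library size after TMM normalization.

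Of the 5 genes, 1 rose in cKO skin, the urokinase receptor gene Plaur, and 0 fell (QL, p adjusted by Benjamini and Hochberg over the whole table, threshold 0.05). In the same test 1.09% of the 17440 genes tested were called, 0.74% higher and 0.35% lower, and all 5 genes were high enough to be tested. Plat, Serpine2 and Plau were higher in both cKO libraries than in both control libraries without passing, and Serpinb2 overlapped between the groups. Such separation was common, with 25.1% of all tested genes higher and 27.7% lower in both cKO libraries. DESeq2 called 3 of the 5 members and 10.8% of all tested genes, edgeR's exact test 3 and 10.4%, and limma voom 1 and 1.15%. At an unadjusted p under 0.05 stood 4 members and 20.0% of all genes. QL with other inputs called 1 member and 1.05% of genes with median-of-ratios factors, 1 and 1.58% with library size alone, 2 and 3.17% without the filter on low counts, 4 and 8.42% without cKO replicate 2, 1 and 4.12% without cKO replicate 3, and 2 and 6.75% with replicate number as a block. In limma on log2(FPKM + 0.1) and log2(FPKM + 1) the shares of all genes were 1.69% and 2.2%. The median log2 fold change of the 5 genes was 1.22, against -0.0014 over all tested genes. The 5 genes were chosen with earlier results of these data known, so this contrast is no test. In whole skin, more cells of a type and more RNA per cell cannot be told apart.

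**Figure D1:**
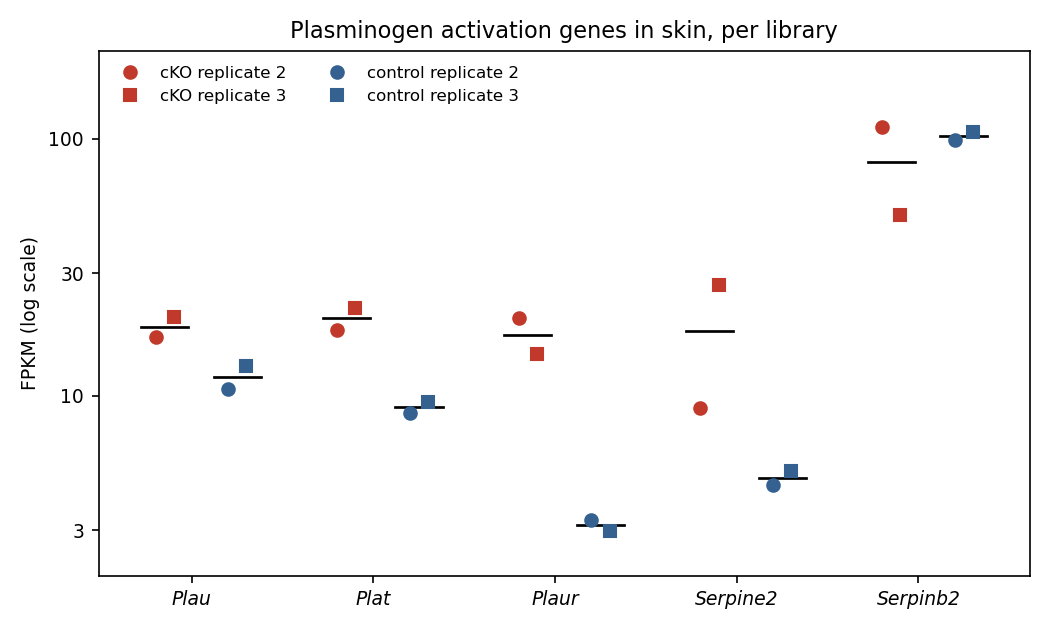
FPKM of each gene on a log axis in cKO (red) and control (blue) skin, with replicate 2 as circles, replicate 3 as squares and a bar at the group mean of 2 libraries. Plaur stands at 14.6 and 20.0 FPKM in cKO skin, above both control libraries at 2.98 and 3.30 FPKM, while Serpinb2 in cKO skin lies on both sides of the control values.

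The receptor gene Plaur (ENSMUSG00000046223, chromosome 7), whose protein holds urokinase at the cell surface by a lipid anchor, had 20.0 and 14.6 FPKM in cKO replicates 2 and 3, against 3.30 and 2.98 FPKM in control replicates 2 and 3. These came from 830 and 667 counts in cKO skin and 202 and 174 counts in control skin. The lower cKO library stood 4.74 times above the higher control library in CPM, so the groups were far apart relative to the spread within either. Plaur averaged 17.3 ± 3.84 FPKM in cKO skin and 3.14 ± 0.23 FPKM in control skin (SD, n = 2 each). It rose 5.76-fold, or by 2.53 ± 0.22 on the log2 scale (SE, n = 2 libraries each, QL adjusted p = 0.0428). By p it was gene 59 and by size of increase gene 363 of the 17440 tested. With either control library left out (replicate 2 or 3), QL called 0 genes, with 1847 and 1602 genes at an unadjusted p under 0.05, and Plaur then had adjusted p = 0.204 and 0.253 with log2 fold changes of 2.59 and 2.47; no other tool was run on those libraries. The authors' deposited table gives Plaur a log2 fold change of 2.41 with a false discovery rate of 5.55e-09.

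The urokinase gene Plau (ENSMUSG00000021822, chromosome 14) had 17.0 and 20.2 FPKM in cKO replicates 2 and 3, against 10.7 and 13.1 FPKM in control replicates 2 and 3. Both cKO libraries lay above both control libraries, but the lower cKO library exceeded the higher control library 1.33 times in CPM. On the log2 scale the difference was 0.72 ± 0.20 (SE, 2 libraries each, QL adjusted p = 0.154), with a 95% interval before adjustment from 0.19 to 1.24. Plau did not pass under any of the 13 alternative settings tried, and the authors' deposited table gives it a false discovery rate of 0.245.

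Plat (ENSMUSG00000031538, chromosome 8), the gene of tissue plasminogen activator, had 18.1 and 22.0 FPKM in cKO replicates 2 and 3, against 8.61 and 9.45 FPKM in control replicates 2 and 3. The lower cKO library exceeded the higher control library 1.96 times in CPM. Its log2 difference, cKO minus control, was 1.22 ± 0.18 (SE, 2 libraries each), a fold of 2.33, with QL adjusted p = 0.063, just outside the threshold. Without cKO replicate 2 it passed (log2 fold change 1.37, QL adjusted p = 0.0255), a fit in which the lone cKO library is assumed to vary like the other group. DESeq2 called it as well (log2 fold change 1.24, adjusted p = 0.000136), and so did the authors' deposited table, with a false discovery rate of 0.00615; there, 8.82% of the genes tested here have a rate under 0.05.

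Among the inhibitors, Serpine2 (ENSMUSG00000026249, chromosome 1) had 8.96 and 26.9 FPKM in cKO replicates 2 and 3, against 4.51 and 5.09 FPKM in control replicates 2 and 3. The cKO libraries differed 3.10 times from each other in CPM and the control libraries 1.14 times. Both cKO libraries were above control, with cKO replicate 3 far above all others. On the log2 scale the difference was 1.98 ± 0.57 (SE, 2 libraries each, QL adjusted p = 0.164), and the 95% interval before adjustment ran from 0.47 to 3.49. Without cKO replicate 2 the change was 2.58 on the log2 scale and passed (QL adjusted p = 0.00936). Without cKO replicate 3 it was 0.94 and did not pass. DESeq2 (adjusted p = 0.00485) and edgeR's exact test (0.0129) called Serpine2, and the authors' deposited table gives it a log2 fold change of 1.92 with a false discovery rate of 0.000673. In CPM Serpine2 stood at 74.8 and 232 in cKO replicates 2 and 3, against 36.4 and 41.5 in control replicates 2 and 3. Fibroblast markers, 8 genes, summed to 19675 and 12579 CPM in cKO replicates 2 and 3, against 7564 and 6629 CPM in control replicates 2 and 3. Of these 8 genes, 4 were higher in cKO replicate 2, the collagen genes Col1a1, Col1a2 and Col3a1 and Lum, and the other 4, among them Pdgfra with 198 and 371 CPM and Dcn with 1412 and 2541 CPM in cKO replicates 2 and 3, were higher in cKO replicate 3. Endothelial markers, 7 genes, summed to 501 and 813 CPM in cKO replicates 2 and 3, against 353 and 332 CPM in control replicates 2 and 3. Skeletal muscle markers, given above, were also higher in cKO replicate 3 than in cKO replicate 2. The part of fibroblast, endothelial or muscle content in the Serpine2 values was not tested.

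Serpinb2 (ENSMUSG00000062345, chromosome 1) was the most abundant of the 5 transcripts per length. It had 111 and 50.6 FPKM in cKO replicates 2 and 3, against 99.0 and 106 FPKM in control replicates 2 and 3. Replicate 2 of cKO skin stood above and replicate 3 below both control libraries. On the log2 scale the difference was -0.28 ± 0.38 (SE, 2 libraries each, QL adjusted p = 0.745). The 95% interval before adjustment ran from -1.30 to 0.74 and so held changes of either sign. Its direction turned without cKO replicate 3 (log2 fold change 0.16, QL adjusted p = 0.427), and without cKO replicate 2 it passed downward (-0.93, adjusted p = 0.0367). Serpinb10 overlaps the Serpinb2 gene on the same strand in GENCODE M21, where it is annotated as a polymorphic pseudogene; it had 31 and 46 counts in cKO skin and 86 and 74 counts in control skin, against 4147 and 2075 counts of Serpinb2 in cKO skin and 5442 and 5559 counts in control skin. In that annotation 0 genes overlap any of the other members.

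The sequences just before the RefSeq start are shown for the 3 members that the promoter table holds, because their values differ in kind: Plaur rose, Serpine2 was higher with a wide spread, and Serpinb2 overlapped between the groups. Each is 250 bases long and ends next to the start, is written 5′ to 3′ on the gene's strand, and comes from RefSeq on build GRCm38.p6, which is not the build mm8 named in the submitters' processing notes. Capitals mark matches, on either strand, to the AP-1 motif TGANTCA, the GC box GGGCGG, the C/EBP motif TTGCNNAA or the TATA motif TATAAA; an NF-kB motif (GGG, any 2 bases, T, any 2 bases, CC) was searched too. Serpinb2 has a second start in the table, and the window of the first is shown.
Plaur, chr7:24462233-24462482, plus strand: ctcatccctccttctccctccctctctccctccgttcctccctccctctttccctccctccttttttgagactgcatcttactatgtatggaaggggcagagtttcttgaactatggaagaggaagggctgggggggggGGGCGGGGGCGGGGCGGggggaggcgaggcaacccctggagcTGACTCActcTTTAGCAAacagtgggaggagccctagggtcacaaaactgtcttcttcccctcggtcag
Serpine2, chr1:79858666-79858915, minus strand: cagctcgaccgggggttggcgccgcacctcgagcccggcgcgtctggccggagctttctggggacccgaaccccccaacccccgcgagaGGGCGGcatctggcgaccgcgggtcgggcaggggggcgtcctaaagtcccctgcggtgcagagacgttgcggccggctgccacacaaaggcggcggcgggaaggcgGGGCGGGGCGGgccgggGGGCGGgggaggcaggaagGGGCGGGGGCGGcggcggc
Serpinb2, chr1:107511173-107511422, plus strand: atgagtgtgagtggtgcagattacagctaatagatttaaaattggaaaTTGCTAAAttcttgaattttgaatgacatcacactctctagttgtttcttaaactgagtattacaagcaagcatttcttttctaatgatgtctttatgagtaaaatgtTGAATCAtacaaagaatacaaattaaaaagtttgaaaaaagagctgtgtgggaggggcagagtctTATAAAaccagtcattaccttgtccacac

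The Plaur window held 1 AP-1 match, TGACTCA, whose first base lies at -69 from the start, 1 C/EBP match at -59 and 3 GC boxes from -111 on, the last pair sharing a base. The Serpinb2 window held 1 AP-1 match, TGAATCA at -94, 1 C/EBP match at -202 and 1 TATA match at -29. The Serpine2 window held 6 GC boxes, some of which share a base, and 0 matches to the other motifs searched. Base composition also differed: G and C made up 78.8% of the Serpine2 window, 59.6% of the Plaur window and 32.4% of the Serpinb2 window. Over 32851 promoter windows of the same length in the table, 6.75% held an AP-1 match, 32.7% a GC box, 9.56% a C/EBP match, 12.4% a TATA match and 15.9% an NF-kB match, of which these 3 windows had 0. A match describes the letters only.

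The order of the 5 transcripts per length differed between the groups. In cKO skin Serpinb2 stood highest in both libraries, and the ranges of the other 4 overlapped their neighbours, with Plat at 18.1 to 22.0 FPKM, Plau at 17.0 to 20.2, Serpine2 at 8.96 to 26.9 and Plaur at 14.6 to 20.0 FPKM. In control skin the ranges of all 5 were apart from their neighbours, in the order Serpinb2, Plau, Plat, Serpine2 and Plaur. By group mean only Plat and Plau changed places, and the receptor transcript was lowest of the 5 in both groups. In cKO skin its range overlapped that of Plau and of Plat.

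Ratios within a library do not depend on the scaling between libraries. The ratio of Plaur to Plau FPKM was 1.18 and 0.721 in cKO replicates 2 and 3, against 0.309 and 0.228 in control replicates 2 and 3, a 3.48-fold difference between the geometric means. The ratio of Plat to Plau was 1.07 and 1.08 in cKO skin, against 0.806 and 0.723 in control skin. Serpinb2 stood at 3.18 and 1.20 times the summed activators (Plau and Plat) in cKO replicates 2 and 3, against 5.13 and 4.71 times in control replicates 2 and 3. The summed activators had 35.1 and 42.2 FPKM in cKO skin, against 19.3 and 22.5 FPKM in control skin. Between the inhibitors, the ratio of Serpine2 to Serpinb2 was 0.0804 and 0.532 in cKO replicates 2 and 3, against 0.0456 and 0.0480 in control replicates 2 and 3, with cKO replicate 3 far above the other libraries. In each of these 5 quantities the groups were apart, and the exact two-sided permutation test gave p = 0.333, the smallest that 2 libraries against 2 allow. Other sums overlapped between the groups. Serpine2 and Serpinb2 together had 120 and 77.5 FPKM in cKO replicates 2 and 3, against 103 and 111 FPKM in control replicates 2 and 3 (exact permutation p = 1). All 5 members together had 176 and 134 FPKM in cKO replicates 2 and 3, against 126 and 137 FPKM in control replicates 2 and 3 (exact permutation p = 0.667).

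**Figure D2:**
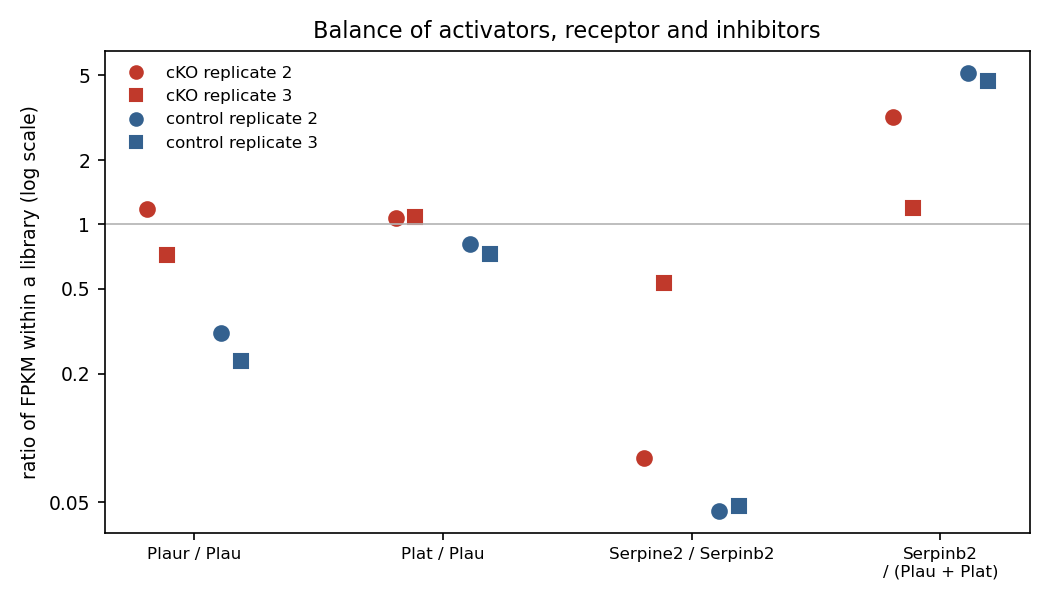
Ratios of FPKM within each library on a log axis, for cKO (red, left in each pair) and control (blue) skin, with replicate 2 as circles and replicate 3 as squares. Plaur relative to Plau was 0.721 and 1.18 in cKO skin, above both control libraries, whereas Serpinb2 relative to the summed activators was 1.20 and 3.18 in cKO skin, below both.

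Among 33 other listed genes of the system, 23 were high enough to be tested, of which 2 rose, 0 fell and 21 did not pass (QL). Over all tested genes 0.74% rose and 0.35% fell in QL. The median log2 fold change of the 23 was 0.77, against -0.0014 over all tested genes. In both cKO libraries 15 of the 23 were higher and 3 lower, against 25.1% and 27.7% of all tested genes. The list was chosen with earlier results of these data known, so these contrasts are no test. The first of the called genes was Thbd, which encodes thrombomodulin, the endothelial and epidermal receptor that turns thrombin towards protein C. Thbd had 39.8 and 49.7 FPKM in cKO skin, against 13.9 and 15.2 FPKM in control skin, and rose by 1.69 ± 0.18 on the log2 scale (SE; QL adjusted p = 0.0476). The other was Mrc2, which encodes Endo180, a collagen receptor that associates with urokinase and its receptor. Mrc2 had 13.7 and 12.6 FPKM in cKO skin, against 6.32 and 5.56 FPKM in control skin, and rose by 1.21 ± 0.14 on the log2 scale (SE; QL adjusted p = 0.049). Mrc2 missed the threshold in QL with library size alone (adjusted p = 0.0502) and in limma on log2 FPKM (0.0581 and 0.0555 with pseudocounts of 0.1 and 1). Without control replicate 2 the QL adjusted p was 0.232 for Thbd and 0.238 for Mrc2, and without control replicate 3 it was 0.287 and 0.344.

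The inhibitor list of 10 genes had 5 tested members, of which QL called 0. Before adjustment 3 had p under 0.05, 2 higher and 1 lower, against 20.0% of all tested genes. DESeq2 called 1 higher, edgeR's exact test 2 higher and 1 lower, and limma voom 0. Over all tested genes the shares called were 10.8%, 10.4% and 1.15%. Serpinf2, the plasmin inhibitor alpha-2-antiplasmin, was scarce, with 4 and 2 counts in cKO skin and 18 and 26 counts in control skin (log2 fold change -2.31 ± 0.61, QL adjusted p = 0.137). Serpini1, the neuroserpin gene, was also scarce, with 29 and 50 counts in cKO skin and 18 and 10 counts in control skin. It stood at 2.01 ± 0.49 on the log2 scale (QL adjusted p = 0.125).

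The substrate of the activators was nearly absent as a transcript. Plg, the plasminogen gene, known to be made mainly in the liver, had 1 and 2 counts in cKO replicates 2 and 3, against 0 and 2 counts in control replicates 2 and 3, all below a floor of 3 counts. That floor corresponds to 0.172 to 0.189 CPM, without TMM, in cKO skin and 0.128 to 0.134 in control skin, and covers counting error only. Of the 6 precursor and contact pathway genes, only Kng2, a kininogen gene, was tested, and it did not pass (log2 fold change 1.65 ± 0.82, QL adjusted p = 0.357).

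Of the 17 receptor, clearance and partner genes, Thbd and Mrc2 were the called ones. Lrp1, the endocytic receptor that clears activators bound to their inhibitors, had 58.0 and 147 FPKM in cKO replicates 2 and 3, against 28.7 and 34.6 FPKM in control replicates 2 and 3. Its log2 difference, cKO minus control, was 1.77 ± 0.52 (QL adjusted p = 0.173), with the same order of the cKO libraries as Serpine2. The integrin genes Itga5 and Itgam, for chains of the fibronectin receptor and of Mac-1, stood at 1.60 ± 0.27 and 1.92 ± 0.33 on the log2 scale (QL adjusted p = 0.0735 and 0.0769). Itgb1 had 0.76 ± 0.15 without passing. Vtn, the gene of vitronectin, which binds the urokinase receptor, overlapped between the groups (0.66 ± 0.44). Among the plasminogen receptor genes, Eno1 had 0.77 ± 0.17, while Plgrkt had -0.47 ± 0.16, S100a10 -0.36 ± 0.27 and Anxa2 -0.24 ± 0.27, all without passing.

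**Figure D3:**
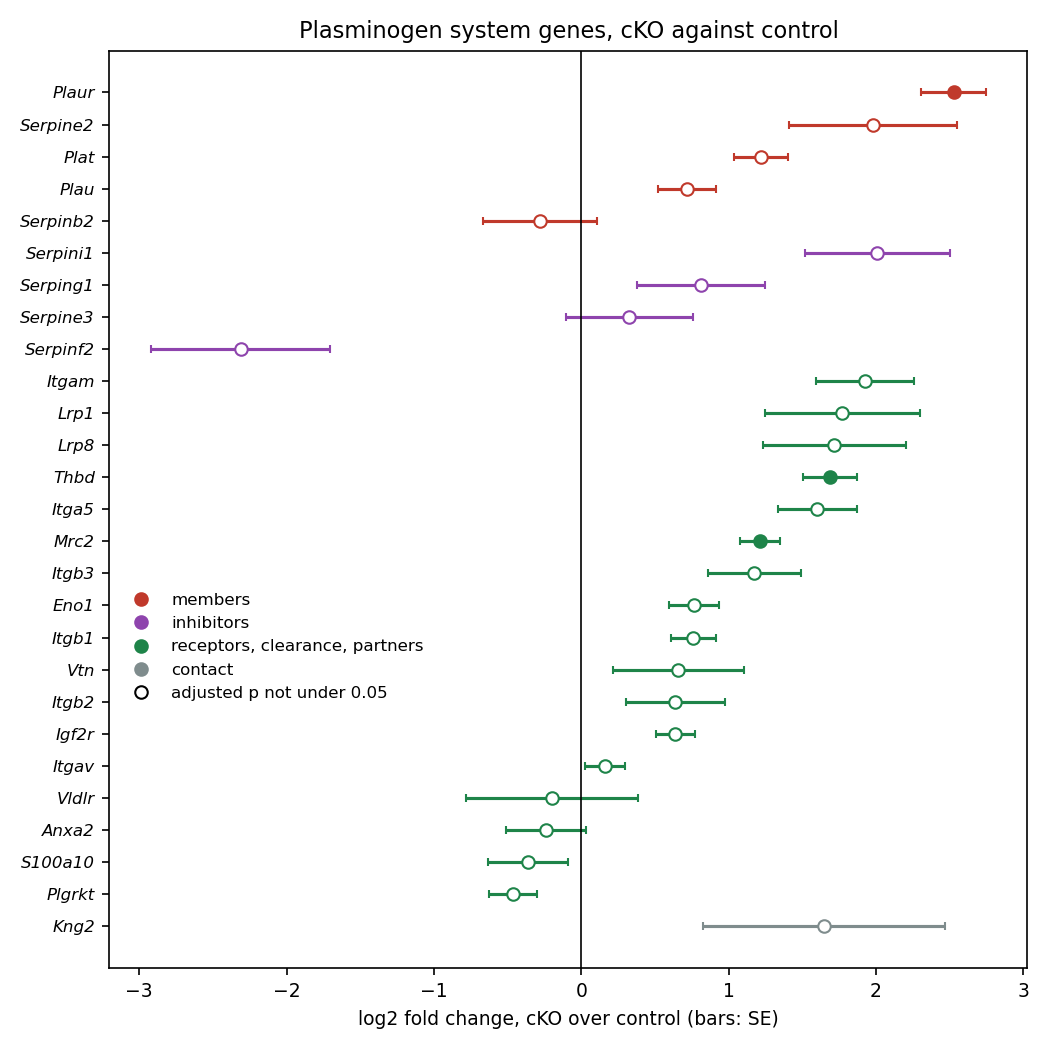
log2 fold change of cKO over control skin for the 5 members and the reported genes among the 23 tested ones of the other lists, with bars of 1 SE from 2 libraries per group; filled symbols passed the adjusted p threshold of 0.05 in edgeR quasi-likelihood. Plaur, Thbd and Mrc2 are filled, at 2.53, 1.69 and 1.21, and Serpine2, at 1.98, is open.

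Among 22 genes listed for substrates of plasmin or urokinase, fibrin formation and protease receptors, 19 were tested and QL called 0. Before adjustment 15 had p under 0.05, 12 higher and 3 lower, against 20.0% of all tested genes. DESeq2 called 10 higher and 2 lower, edgeR's exact test 9 higher and 2 lower, and limma voom 0. Over all tested genes the shares called were 10.8%, 10.4% and 1.15%. The median log2 fold change of the 19 was 0.75. Mmp3, a stromelysin whose precursor plasmin can cut, had 147 and 363 FPKM in cKO skin, against 14.0 and 14.1 FPKM in control skin (log2 fold change 4.26 ± 0.53, QL adjusted p = 0.0525). Mmp14, a membrane-bound metalloproteinase, had 1.28 ± 0.17, and Mmp13, a collagenase, had 4.50 ± 0.68, both without passing (adjusted p = 0.0546 and 0.0632 in the same test). F2r, the thrombin receptor gene, had 0.98 ± 0.16, without passing. F2rl1, the gene of protease-activated receptor 2, had 11.5 and 5.41 FPKM in cKO skin, against 29.8 and 27.0 FPKM in control skin, or -1.69 ± 0.37 on the log2 scale (QL adjusted p = 0.107). The fibrinogen chain genes Fga, Fgb and Fgg had 0 counts in both cKO libraries and at most 8 in a control library.

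Plaur belongs to the family of proteins with the Ly6/uPAR fold. Of 23 listed genes that encode other members of it, 17 were tested and QL called 0. Before adjustment 5 had p under 0.05, against 20.0% of all tested genes. DESeq2 called 1 higher and 2 lower, edgeR's exact test 2 higher and 1 lower, and limma voom 0. Over all tested genes the shares called were 10.8%, 10.4% and 1.15%. The median log2 fold change of the 17 was 0.06, against 2.53 for Plaur. In both cKO libraries 5 were higher and 2 lower, against 25.1% and 27.7% of all tested genes. Lypd3, which encodes the epidermal relative C4.4A, had 203 and 204 FPKM in cKO skin, against 107 and 90.4 FPKM in control skin (log2 fold change 1.11 ± 0.16, QL adjusted p = 0.0599). Ly6g6c and Ly6g6e had -0.87 ± 0.17 and -0.84 ± 0.20, Ly6a had 0.45 ± 0.16, and Tex101, at 13 and 22 counts in cKO skin and 5 and 0 in control skin, had 3.26 ± 1.06, all without passing.

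Serpinb2 lies in a row of clade B serpin genes on chromosome 1, in the order of GENCODE M21. In that row, Serpinb12 had 81.5 and 147 FPKM in cKO skin, against 2.41 and 1.63 FPKM in control skin, and rose by 5.89 ± 0.45 on the log2 scale (QL adjusted p = 0.0417), and Serpinb3b rose by 2.94 ± 0.25 (adjusted p = 0.0428 in the same test). Without control replicate 2 and without control replicate 3, the log2 fold change was 6.19 and 5.66 for Serpinb12. For Serpinb3b it was 3.12 and 2.79. Those fits leave a lone control library, and the calls did not hold in them, as for Plaur. Reads of the near-identical Serpinb3 genes may be shared. On one side of Serpinb2, Serpinb7 had 17.1 and 8.90 FPKM in cKO skin, against 48.4 and 55.5 FPKM in control skin (log2 fold change -1.94 ± 0.34, QL adjusted p = 0.0773). On the other side the overlapping Serpinb10 had -0.53 ± 0.34 and, after it, Serpinb8 had -0.34 ± 0.17, both without passing. Of 18 listed clade B serpins, 15 were tested, 2 rose, 0 fell and 13 did not pass, with a median log2 fold change of 0.60. Over all tested genes 0.74% rose and 0.35% fell.

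**Figure D4:**
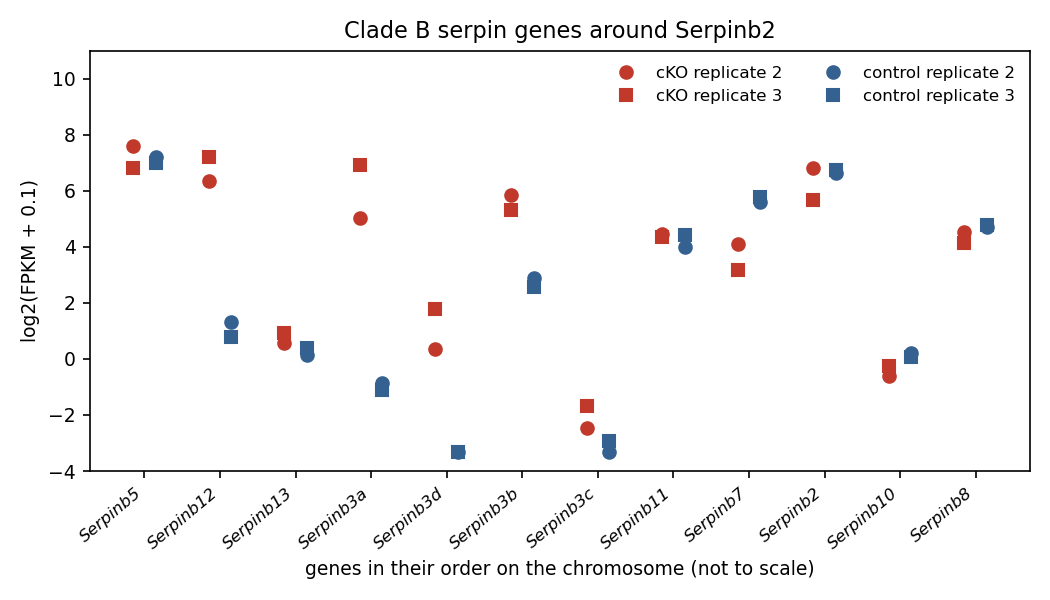
log2(FPKM + 0.1) of the clade B serpin genes of chromosome 1 in their order along it, in cKO (red, left in each pair) and control (blue) skin, with replicate 2 as circles and replicate 3 as squares. Serpinb12 stands at 81.5 and 147 FPKM in cKO skin and at 2.41 and 1.63 FPKM in control skin, while for Serpinb2 the cKO values lie on both sides of the control values.

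Likeness of pattern was measured as the Euclidean distance between log2 CPM profiles over the 4 libraries, each centred on its own mean. Among the 5 members the nearest pair was Plau and Plat, at a distance of 0.51, and the farthest was Plaur and Serpinb2, at 2.93. The gene nearest to Plat was Tlr4, the receptor for bacterial lipopolysaccharide, at 0.035, followed by Slc16a12 at 0.070 and Angpt2, an angiopoietin gene, at 0.0997. Plau was followed most closely by Lama2, a laminin chain gene, at 0.051, Nim1k at 0.064 and Zfp30 at 0.069. The nearest to Plaur were Ces2e at 0.21, Ctla2a at 0.23 and Spatc1 at 0.23. Of these, Ctla2a rose by 2.49 ± 0.25 on the log2 scale (QL adjusted p = 0.0455). Without control replicate 2 and without control replicate 3 the log2 fold change of Ctla2a was 2.73 and 2.29. Serpine2 was nearest to Rrad, Klk12 and Gfra1, at 0.21, 0.22 and 0.22, and Serpinb2 to Cmtm8, Plek2 and Pla2g4b, at 0.037, 0.069 and 0.082. With 4 libraries many genes share a profile, so these names describe the values and carry no test.

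Markers of cells that skin can hold were read in the same libraries. Neutrophil markers, 10 tested genes, summed to 312 and 256 CPM in cKO replicates 2 and 3, against 16.1 and 13.2 CPM in control replicates 2 and 3. The order of the 4 libraries was that of Plaur, an order that the sums of basal keratinocyte, fibroblast, hair shaft and dermal papilla markers shared. Single neutrophil markers did not all follow it within cKO skin. Of the 10, 7 were higher in cKO replicate 2, most of all Retnlg, at 77.6 and 16.2 CPM in cKO replicates 2 and 3. Csf3r, at 48.0 and 101 CPM in cKO replicates 2 and 3, Cxcr2 and Trem1 were higher in cKO replicate 3. In that list 5 of the 10 rose in QL, with 9 called by DESeq2, 10 by edgeR's exact test and 4 by voom, and the granule genes Mpo and Elane, with at most 3 counts in any library, were too low to test. Macrophage markers, 10 genes, summed to 1328 and 1431 CPM in cKO skin, against 613 and 758 CPM in control skin, of which QL called 0, with 7 below 0.05 before adjustment. Calls in that list numbered 7 in DESeq2, 7 in edgeR's exact test and 0 in voom. Over all tested genes the shares called were 1.09% in QL, 10.8% in DESeq2, 10.4% in the exact test and 1.15% in voom. An unadjusted p under 0.05 in QL was held by 20.0% of all tested genes. Mast cell markers, 7 genes, summed to 367 and 611 CPM in cKO skin, against 115 and 142 CPM in control skin, with 1 called by QL, Cpa3, while DESeq2 and edgeR's exact test each called 6 of the 7 and voom 1. Basal keratinocyte markers, 6 genes, summed to 18591 and 12028 CPM in cKO replicates 2 and 3, against 11733 and 11332 CPM in control replicates 2 and 3. The members of that list did not go one way: Krt14 stood at 1.48 ± 0.42 on the log2 scale, while Krt15 at -2.18 ± 0.47, Col17a1 at -1.31 ± 0.29 and Trp63 at -0.55 ± 0.23 were lower in both cKO libraries, none passing in QL, and the list's median was -0.28. Suprabasal keratinocyte markers, 7 genes, summed to 18339 and 30826 CPM in cKO replicates 2 and 3, against 13152 and 13086 CPM in control replicates 2 and 3. That sum was carried by Krt1, at 2.38 ± 0.49 on the log2 scale, and Krt10, at 0.61 ± 0.47, while Sbsn at -1.09 ± 0.24 and Dsg1a at -0.49 ± 0.21 were lower in both cKO libraries, none passing in QL, and the list's median was -0.08. The part of any of these cell types in the values of Plaur, Plat and the other members was not tested.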

How the data were processed

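Libraries were TruSeq, from Trizol RNA of skin, per the labels' protocols. The table holds expected counts, which the authors estimated per gene with RSEM, per the submitters' processing notes, and all were whole numbers. The authors also deposited FPKM per library, and their log2 fold change, p-value and false discovery rate of cKO over control; edgeR and the build mm8 are named in the processing notes. The sources used here give no aligner, annotation release or strand setting. The 4 blank lines were skipped. Ctr columns belong to the floxed group, matched by number.

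Of the identifiers, 98.9% match GENCODE M21, used for names and neighbours. Counts were filtered with filterByExpr, scaled with TMM and tested over 17440 genes with edgeR 4.0.16 quasi-likelihood (R 4.3.3), no covariate, Benjamini-Hochberg adjusted. SE is the unshrunken log2 fold change over the square root of F. DESeq2 1.42.0, the edgeR exact test and limma 3.58.1 (voom, and log2(FPKM + 0.1) or log2(FPKM + 1)) were alternatives. Replicates differed by more than sampling noise (chi-square per gene 68.4 in cKO and 18.1 in control). The scripts were tested on simulated data.

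Members and gene lists were chosen with earlier results of these data known. Named genes are the members, called genes, the 5 smallest p of each list, direct partners and the 3 nearest profiles per member. F2rl1, the fibrinogen genes, Eno1, Plgrkt, S100a10, Anxa2, Serpinb8, Serpinb10 and single markers were named after their values were seen. A few genes under this rule go unreported; counts and medians are over the whole lists.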

Additional observations from a re-analysis of the deposited data

How the results depend on the processing

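Plau kept its direction and its side of the threshold under all 13 alternatives. Plat passed without the filter on low counts (log2 fold change 1.20, adjusted p = 0.0304), in DESeq2 (1.24, 0.000136), in the edgeR exact test (1.22, 0.000701) and with a replicate block (1.21, 0.0281). Serpine2 passed in DESeq2 (2.0, 0.00485) and the edgeR exact test (1.98, 0.0129). Leaving out each library in turn, with the lone library assumed to vary like the other group, gave log2 fold changes of 0.56 to 0.89 for Plau, 1.05 to 1.37 for Plat, 2.31 to 2.72 for Plaur, 0.94 to 2.58 for Serpine2 and -0.93 to 0.16 for Serpinb2, and 0 to 1469 genes called in all, 0 to 4 members and 0 to 11 of the other genes of the system; edgeR quasi-likelihood gave the counts of 0 without either control library, where 1847 and 1602 genes had an unadjusted p under 0.05. Without cKO replicate 3 the direction of Serpinb2 turned, to 0.16. The count of all genes called, 190 at first, was 883 without the filter, 1886 in DESeq2, 1811 in the edgeR exact test, 295 and 383 in limma on log2(FPKM + 0.1) and log2(FPKM + 1), and 1177 with the replicate block; all 190 were among those called without the filter, in DESeq2, in the edgeR exact test and with the block. The count of members called, 1 at first, was 2 without the filter, 3 in DESeq2, 3 in the edgeR exact test and 2 with the replicate block. The count of the other genes of the system called, 2 at first, was 1 with library size alone, 5 without the filter, 11 in DESeq2, 11 in the edgeR exact test, 1 in each limma fit on FPKM and 5 with the replicate block. The labels do not say that a number pairs a cKO with a control library; the differences between replicates 2 and 3 correlated between the groups with r = 0.414 across 17440 genes, which are not independent replicates. The causes of these shifts were not tested. With library size alone the median log2 fold change of all genes was -0.067, against -0.0014 with TMM. The intervals given are before adjustment and set no limit of detection for calls on adjusted p. In the simulated data, edgeR quasi-likelihood recovered 14.3% of 2-fold, 71.0% of 4-fold and 93.8% of 8-fold changes. With 2 libraries per group, a gene that did not pass was therefore not shown to be unchanged.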
